A study of Mus musculus with 9 samples.

Results

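Organoids grown from yMaSCs were compared with organoids grown from mammary stem cells (MaSCs), and arrays of the 2 kinds were matched by their replica letter, A, B or C. The comparison used 6 of the 9 arrays of the study, 3 of each kind. The remaining 3 arrays held luminal differentiated (LD) cells and served to show where a gene lay in the cells from which yMaSCs had been made. They also helped to choose the probe set of each gene and the genes searched for luminal traces, and they entered an alternative fit. For every gene the value in the MaSC organoids of a letter was subtracted from the value in the yMaSC organoids of that letter, and genes were sought whose 3 differences ran the same way, such as remnants of a luminal origin.

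MaSCs and LD cells were sorted from mammary glands of young adult virgin C57BL/6J mice, the stated strain unless otherwise specified, MaSCs being EpCAM-low, CD49f-high and CD61+, whereas the LD gate was CD61-, CD49f-low and EpCAM-high. To obtain yMaSCs, LD cells received 2 kinds of lentivirus, 1 encoding the doxycycline-dependent activator rtTA and 1 encoding wild-type YAP under its control, and were treated with doxycycline in flat culture. No vector is described for the native MaSCs, so that cell of origin, transduction and doxycycline all separate the kinds and cannot be told apart. Organoids from yMaSCs were kept without doxycycline. Both kinds of organoid grew in Matrigel, and their medium held the growth factors EGF and bFGF with heparin, noggin, which blocks BMP, and R-spondin 1, which strengthens Wnt signals. LD cells were profiled fresh from the sort. The labels call A, B and C biological replicas but do not say whether a letter stands for an animal, a day or a batch. If the replicas did not come from separate animals, p-values describe technical spread alone.

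The mammary epithelium has an inner luminal layer, which includes hormone-sensing and milk-producing cells, and an outer basal layer of contractile myoepithelial cells, among which the MaSC-enriched fraction is found. YAP and its relative TAZ (gene Wwtr1) are transcriptional co-activators that bind DNA through TEAD factors and are restrained by the kinases of the Hippo pathway. Mammary organoids derived from single stem-like cells typically contain both layers.

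RNA was hybridized to Affymetrix arrays, and expression is given as log2 values made by RMA, so that 1 log2 is a 2-fold difference. Lower quartiles of the 9 arrays ran from 3.47 to 3.59 and upper quartiles from 7.39 to 7.59, and differences of a gene near the lower quartile understate the true ratio. A gene with several probe sets was represented by its brightest one on average, which gave 18194 genes. Genes of both layers were expressed in both kinds of organoid. The luminal keratin gene Krt8 lay between 13.14 and 13.48 in the 6 organoid arrays, and the basal regulator Trp63 lay between 8.57 and 9.34 there against 3.60 to 3.98 in LD cells. On the 3' side minus the 5' side of the beta-actin control, a sign of RNA integrity, MaSC organoids spanned 0.13 to 0.39 log2 and yMaSC organoids 0.15 to 0.29. Among LD cells array B stood apart in milk genes, with the casein gene Csn2 at 12.98, 3.44 and 12.97 in A, B and C. No LD array entered the differences between organoids.

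No gene passed the paired test. In a limma fit with the letter as a block, 0 of 18194 genes (0%) had a Benjamini-Hochberg adjusted p under 0.05, the lowest adjusted p being 0.964. In the same fit 596 genes had an unadjusted p under 0.05, a smaller share of all genes than 0.05. For 17857 genes the 95% interval of the mean difference lay within 1 log2 on either side of 0. The fits without the letter called 0 genes too, with 198 at an unadjusted p under 0.05 in the 6 organoid arrays and 104 when LD arrays helped to estimate the spread. In what follows a gene is therefore described by its 3 differences, and "higher" or "lower" in each pair is an observation on these arrays, not a called change.

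The 3 pairs were unequal. In pair A 68 genes differed by at least 1 log2 in either direction (0.374%), in pair B 12 (0.066%) and in pair C 339 (1.86%). The standard deviation of the difference over genes was 0.21, 0.17 and 0.35 log2. Letter C stood apart from A and B within either kind. Among MaSC organoids, 619 genes differed by 1 log2 between A and C and 801 between B and C, and among yMaSC organoids 893 and 770 did. Between the letters A and B the counts were 152 and 173, above those of kinds in pairs A and B and below that in pair C.

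The direction of a difference in one pair was often not kept in another. Over all 18194 genes, Pearson's r of the differences was 0.10 between pairs A and B, 0.01 between A and C and -0.11 between B and C. These are descriptions across genes that share arrays and a common normalization, and the pairs share no array. Of 47 genes that differed by 0.5 log2 in both A and B, 37 did so in the same direction. Of 172 in both A and C, 91 ran the same way and 81 opposite ways. Of 101 in both B and C, 23 ran the same way and 78 opposite ways.

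**Figure D1:**
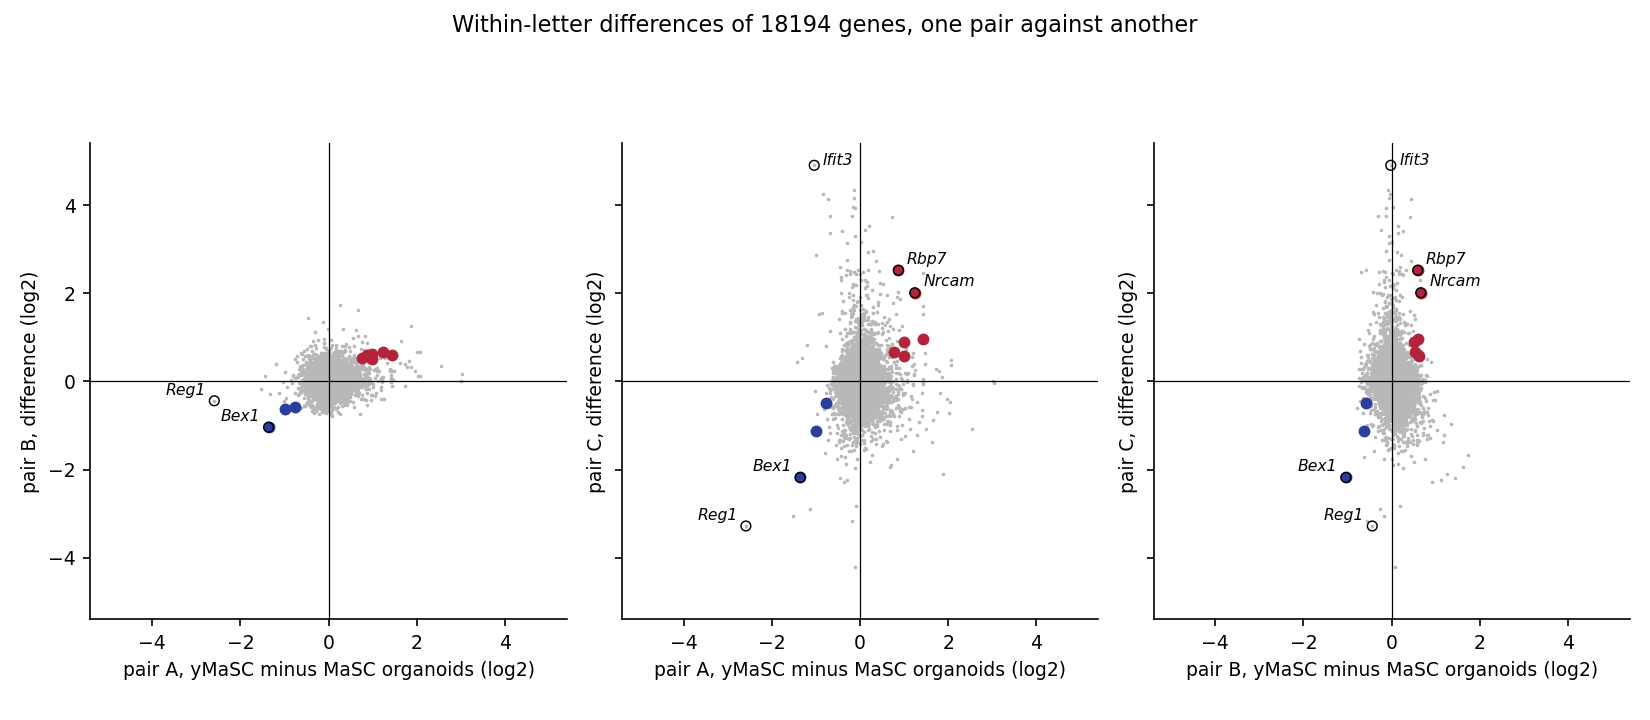
Each point is 1 of 18194 genes, placed by its yMaSC minus MaSC organoid difference (log2) in 1 letter pair on the x axis and another on the y axis. Red points are the 6 genes higher and blue points the 3 genes lower by at least 0.5 log2 in each pair, and ringed genes are named. Pair B is the narrowest cloud and pair C the widest, and Ifit3, at 4.90 log2 in pair C, was -1.04 and -0.02 in pairs A and B.

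In all, 9 genes differed the same way by at least 0.5 log2 in each of the 3 pairs. In yMaSC organoids 6 were higher, 0.033% of all genes, namely Nrcam, Pglyrp1, Rbp7, Epgn, Mgp and Matn2. Lower were 3, 0.0165% of all genes, namely Bex1, Ivl and B4galnt2. In the paired limma fit each of the 9 had an adjusted p of 0.964. Pair B, with the smallest differences, set the count: without it 57 genes were higher and 34 lower, without pair A 12 and 11, and without pair C 30 and 7. At 1 log2 in each pair, 0 genes were higher and only Bex1 was lower.

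Bex1, a gene of the brain-expressed X-linked family of small adaptor proteins, had the largest difference among them. Its level in MaSC organoids A, B and C was 5.81, 5.14 and 6.43, and in yMaSC organoids it was 4.45, 4.10 and 4.25. The kinds did not overlap. In LD cells, Bex1 was at 10.19, 10.12 and 10.22. The mean difference of yMaSC minus MaSC organoids was -1.53 ± 0.59 log2 (SD, n = 3 pairs; 95% interval -2.09 to -0.96), so that the organoids that came from LD cells lay farther from LD cells than the MaSC organoids did. The Bex1 promoter is shown because Bex1 had the largest difference and its window held a match to the core motif of TEAD factors, the DNA-binding partners of YAP. It is the RefSeq window of 250 bases before and 50 after the start (GRCm38.p6, chrX:136215464-136215763, minus strand), with GGAATG, searched on both strands, in capitals.
Bex1: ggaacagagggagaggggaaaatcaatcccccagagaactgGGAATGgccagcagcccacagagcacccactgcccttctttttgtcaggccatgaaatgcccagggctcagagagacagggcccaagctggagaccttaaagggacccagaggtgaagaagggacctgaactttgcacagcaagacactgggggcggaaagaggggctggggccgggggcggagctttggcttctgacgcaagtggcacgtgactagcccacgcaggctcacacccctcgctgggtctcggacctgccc
The motif stood in 14.6% of 27025 promoters of this length and in 2 of the 7 that were found for the 9 genes, the other one being that of B4galnt2. A match describes these letters and is not a site.

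Ivl and B4galnt2 were the other two genes lower in each pair. Ivl encodes involucrin, a scaffold of the cornified envelope of keratinocytes. It stood at 4.74, 5.11 and 5.36 in MaSC organoids A, B and C and at 3.75, 4.48 and 4.23 in yMaSC organoids, without overlap, and at 2.81 to 3.55 in LD cells. The difference was -0.92 ± 0.26 log2 (SD, n = 3; 95% interval -1.21 to -0.62). A dimmer second probe set of Ivl gave -0.24, 0.00 and -0.22. B4galnt2 encodes an N-acetylgalactosaminyltransferase that modifies the ends of glycans. In MaSC organoids it was at 10.82, 10.60 and 9.39 and in yMaSC organoids at 10.05, 10.01 and 8.89, so the kinds overlapped across letters although each pair differed, by -0.77, -0.59 and -0.50 log2. In LD cells B4galnt2 lay at 3.84 to 4.49, well below either kind. Of its 3 other probe sets, 1 was lower in each pair and 2 were mixed.

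Among the 6 higher genes were secreted or matrix proteins. Mgp, the matrix Gla protein that inhibits calcification, was at 9.81, 10.22 and 10.78 in MaSC organoids and at 10.57, 10.74 and 11.45 in yMaSC organoids. The difference of Mgp was the most even of the 9, 0.65 ± 0.12 log2 (SD, n = 3; 95% interval 0.44 to 0.86), while its levels overlapped across letters. Matn2 encodes matrilin 2, an extracellular matrix adaptor. It stood at 5.46, 6.36 and 5.84 in MaSC organoids and at 6.45, 6.87 and 6.74 in yMaSC organoids without overlap, and a second probe set of Matn2 differed by 0.45, 0.50 and 0.70. Matn2 was at 3.30 to 3.51 in LD cells. Pglyrp1, a secreted peptidoglycan-binding protein of innate defense, was at 8.85, 6.60 and 6.41 in MaSC organoids and at 10.28, 7.20 and 7.38 in yMaSC organoids. Its difference was 1.0 ± 0.42 log2 (SD, n = 3), and letter A stood apart from B and C in both kinds.

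Rbp7, Nrcam and Epgn made up the rest. Rbp7, a cellular retinol-binding protein, was at 5.67, 6.12 and 7.87 in MaSC organoids and at 6.54, 6.71 and 10.39 in yMaSC organoids, and its differences of 0.87, 0.59 and 2.52 were dominated by letter C. Nrcam, a cell adhesion molecule of the immunoglobulin superfamily, was at 5.0, 3.61 and 4.32 against 6.24, 4.27 and 6.33, a difference of 1.30 ± 0.68 log2 (SD, n = 3). Of the 3 other probe sets of Nrcam, 1 was higher in each pair and 2 were mixed. Epgn encodes epigen, a ligand of the EGF receptor. It was at 5.71, 4.59 and 5.04 in MaSC organoids, at 6.70, 5.20 and 5.61 in yMaSC organoids and at 11.69, 11.52 and 10.69 in LD cells. Epgn was thus the only gene of the 6 whose LD arrays all lay above both kinds of organoid. Nrcam and Epgn lay below the median organoid level of all genes, 6.34, and were picked after their values were seen. Bex1, Ivl and Matn2 lay below that median too, with organoid means of 5.03, 4.61 and 6.29.

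**Figure D2:**
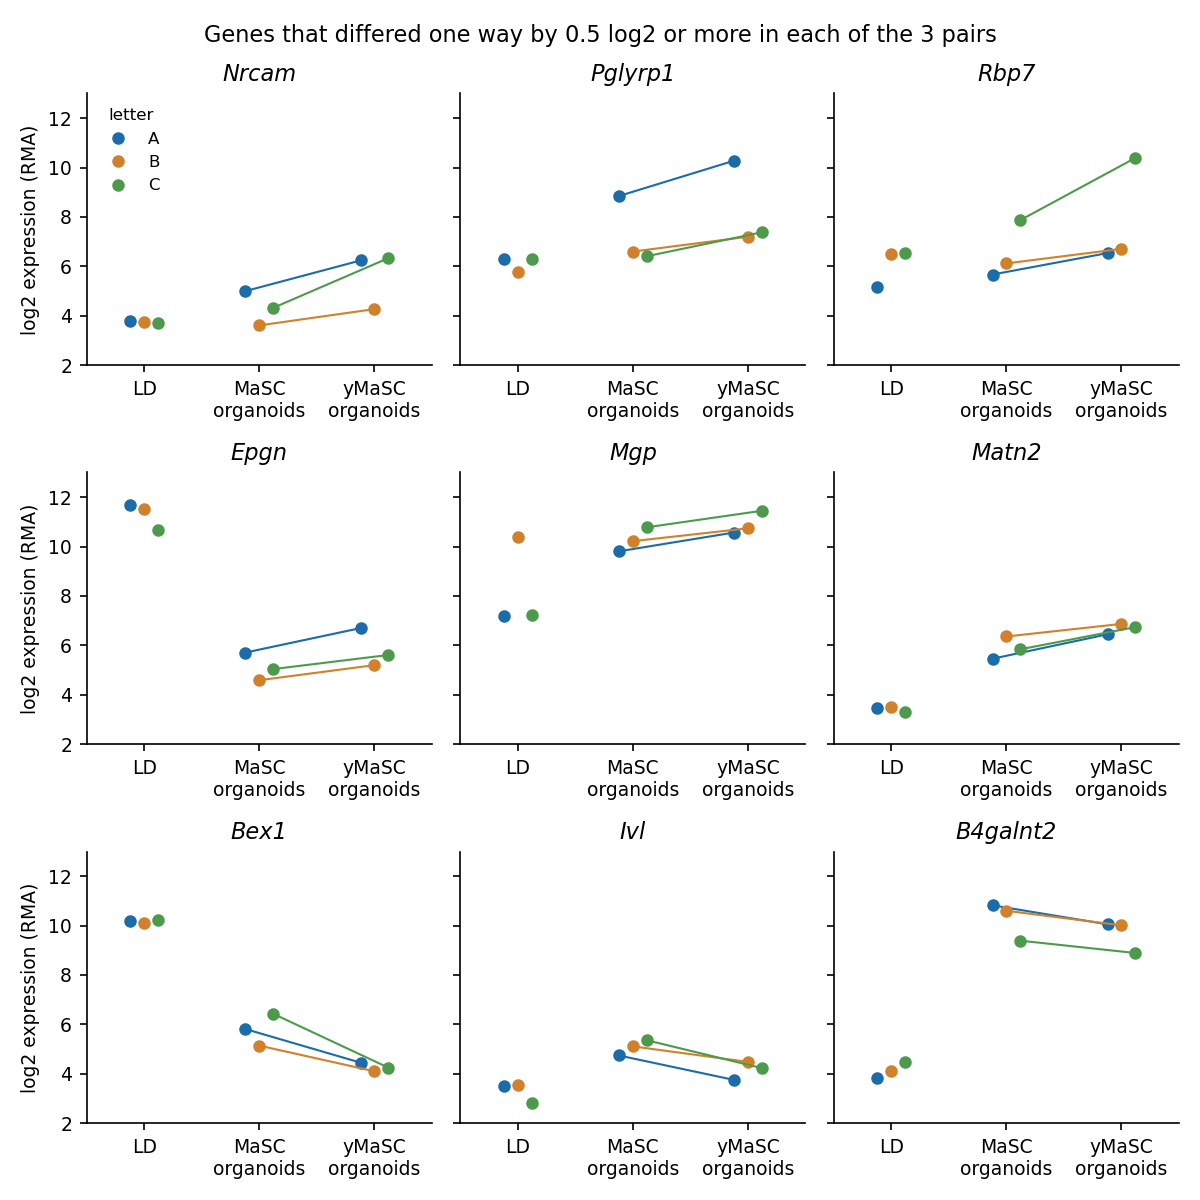
Log2 expression (y axis) of the 9 genes in LD cells, MaSC organoids and yMaSC organoids; each point is 1 array, colours mark the letters, and lines join the organoids of a letter. Every line runs upward in the first 6 panels and downward in the last 3. Bex1 and Epgn were both high in LD cells, at 10.12 or more, yet ran in opposite directions between the organoids.

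At a limit of 0.25 log2 in each pair, 42 genes were higher (0.231%) and 23 lower (0.126%) in yMaSC organoids. With any difference at all, 1854 were higher in each pair (10.2%) and 1941 lower (10.7%). Of the 42, LD arrays lay above all 6 organoid arrays for 10 genes and below them for 7, and of the 23 they lay above for 4 and below for 9. Over all genes the LD arrays lay above for 17.1% and below for 23.3%, so that the 42 held 23.8% and 16.7% and the 23 held 17.4% and 39.1%. Counts this small are given as a description.

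Among the lower genes of this wider set were Reg1, Reg3b and Saa3, picked after their values were seen. Reg1, a secreted C-type lectin of the regenerating family, was at 8.13, 5.98 and 7.78 in MaSC organoids and at 5.54, 5.54 and 4.50 in yMaSC organoids, without overlap. Its difference was -2.59, -0.44 and -3.28 log2. Its relative Reg3b differed by -1.13, -0.27 and -2.90 and Reg3g, which missed the limit in pair B, by -1.53, -0.18 and -3.05. Saa3, an acute-phase apolipoprotein, was at 12.13, 12.09 and 9.39 against 11.16, 11.72 and 8.64, and differed by -0.97, -0.37 and -0.75, while letter C lay far below A and B in both kinds. Reg1 and Saa3 were lower in LD cells, at 3.61 to 4.14 and 5.26 to 6.47, than in any organoid array.

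LD arrays lay above all organoid arrays for Bex1, Cldn6, Ctse and Zfp711 of the lower set. Cldn6, a tight junction claudin, was at 7.12 to 8.25 in LD cells, at 5.69, 5.79 and 6.78 in MaSC organoids and at 5.29, 5.49 and 5.65 in yMaSC organoids. Ctse, the aspartic protease cathepsin E, was at 9.19 to 10.31 in LD cells and differed by -0.35, -0.62 and -1.71 between the organoids. The dimmer second probe set of Ctse was mixed, at 0.16, -0.59 and -0.29. Like Bex1, Cldn6 and Ctse were nearer to LD cells in the MaSC organoids than in the yMaSC organoids. Wnt5a, a non-canonical Wnt ligand whose LD levels overlapped those of the organoids, differed by -0.34, -0.27 and -0.77.

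The higher genes of the wider set included some with high LD levels. Arg1, arginase 1 of the urea cycle, was at 9.43 to 10.25 in LD cells, at 5.58, 7.03 and 5.36 in MaSC organoids and at 6.31, 7.44 and 9.09 in yMaSC organoids. Most of the Arg1 difference lay in pair C, at 3.73 log2, with 0.73 and 0.41 in A and B. Col6a3, a collagen VI chain, differed by 1.17, 0.54 and 0.35, and Fhl2, a LIM-domain co-regulator, by 0.40, 0.26 and 0.46. Both lay above every organoid array in LD cells. Cdkn2b, which encodes the cell cycle inhibitor p15, ran the other way with respect to LD cells: it was at 5.96 to 6.51 there, at 7.53, 7.37 and 7.26 in MaSC organoids and at 8.26, 7.71 and 7.82 in yMaSC organoids, without overlap. Over all genes, yMaSC arrays lay wholly above the MaSC organoid arrays for 2.16% and wholly below for 1.92%.

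Traces of luminal origin were then sought in genes chosen without the arrays being compared. For each letter, LD-high genes were those at least 2 log2 higher in the mean of the LD arrays than in the MaSC organoids of the other 2 letters, and MaSC organoid-high genes were those at least 2 log2 lower. LD-high genes also held immediate early and immune cell genes, such as Atf3 (means of 12.54 in LD cells and 6.49 in MaSC organoids) and Cd52 (7.31 and 3.65). LD cells were fresh from the sort and organoids cultured, so luminal origin, culture and other cells cannot be told apart in this set. In pair A the 436 LD-high genes had a median difference of 0.10 log2 and the 532 organoid-high genes one of -0.11, against 0.00 over all genes. In pair C the medians were 0.06 for 501 genes and -0.16 for 550, against -0.02. In pair B they were 0.01 for 442 genes and 0.03 for 511, against 0.02. Pairs A and C thus leaned a little towards LD cells and pair B did not.

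In pair A 63.8% of LD-high genes were higher in yMaSC organoids, against 45.3% of all genes, and 26.5% of organoid-high genes were. The shares in pair B were 50.7%, 54.2% and 54.8%, and in pair C they were 55.1%, 42.4% and 28.7%. Averaged over letters, the median was 0.06 ± 0.05 log2 for LD-high genes and -0.08 ± 0.10 for organoid-high genes (SD, n = 3 letters). Without letter A the LD-high average was 0.00. The sets of the letters share most of their arrays and no test was made, and 3 pairs could not give an exact two-sided p under 0.25. A shift of this size is small beside the 2 log2 or more by which these genes were chosen. That choice set the LD mean against the MaSC organoids of the other 2 letters, and the compared letter could differ. Csn1s1, LD-high for letter C, had an LD mean of 11.11 but was at 12.85 in MaSC organoids C. Because whole organoids were measured, more cells of a type and more RNA per cell cannot be told apart.

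**Figure D3:**
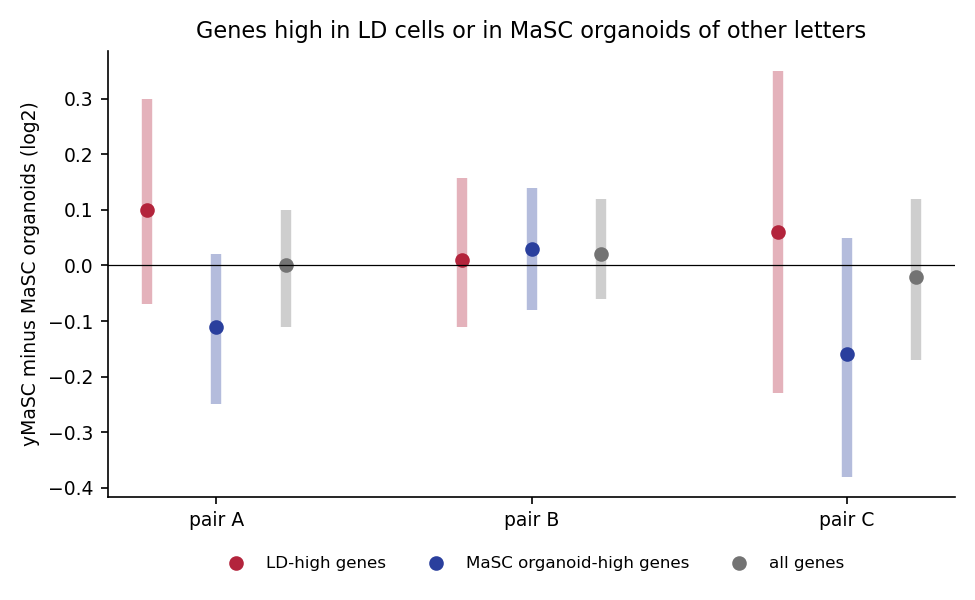
Median (points) and quartiles (bars) of the yMaSC minus MaSC organoid difference in log2 (y axis) in each letter pair, for LD-high genes (red), MaSC organoid-high genes (blue) and all genes (grey). The red and blue medians part in pairs A and C, by 0.10 against -0.11 and 0.06 against -0.16, and not in pair B, at 0.01 against 0.03.

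Lists of lineage genes were next read member by member, and no list had a member past the paired limma test. The 22 measured luminal epithelial genes had medians of 0.035, -0.025 and -0.05 log2 in pairs A, B and C. The median changed sign in pair A with a common median and in pair C with cyclic loess. None of the 22 was higher in each pair, beside 10.2% of all genes, and 2 were lower in each, beside 10.7%, the transcription factor genes Gata3 (-0.13, -0.16 and -0.52) and Grhl2 (-0.18, -0.02 and -0.35). Krt8 was at 13.16, 13.48 and 13.14 in MaSC organoids and at 13.27, 13.41 and 13.18 in yMaSC organoids, the 95% interval of the difference being -0.17 to 0.23 log2. Cldn1, a claudin of tight junctions, differed by 0.75, -0.03 and 1.19. The luminal keratin gene Krt19 differed by 0.88, 0.10 and -0.10.

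Of the 23 basal and myoepithelial genes, 4 were higher and 4 lower in each pair, beside 10.2% and 10.7% of all genes. Higher were the keratin genes Krt15 and Krt17, the cadherin gene Cdh3 and the Notch ligand gene Jag1. Lower were the oxytocin receptor gene Oxtr, the EGF receptor gene Egfr, the transcription factor gene Sox10 and the smooth muscle actin gene Actg2. Actg2 lay below the lower quartile, at means of 3.05 in MaSC and 2.75 in yMaSC organoids. Another probe set of Sox10 was also lower in each pair, and the dimmest was higher, by 0.12, 0.10 and 0.01. The medians of the 23 genes, 0.16, 0.02 and -0.40, varied from letter to letter. Krt14, the basal keratin, was at 8.34, 8.61 and 10.40 in MaSC organoids and at 9.36, 8.49 and 9.80 in yMaSC organoids. Trp63 differed by 0.39, 0.07 and -0.57, and the smooth muscle actin gene Acta2 by -0.04, 0.22 and -0.92.

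Hormone-sensing luminal genes differed in sign between pairs. All 10 measured members were lower in yMaSC organoids of letter C, with a median of -0.64 log2. In letter B 8 of the 10 were higher, with a median of 0.27. Over all genes 52.5% were lower in pair C and 54.2% were higher in pair B. Esr1, the estrogen receptor, was at 8.83, 8.40 and 9.65 in MaSC organoids A, B and C and at 8.63, 8.62 and 9.01 in yMaSC organoids. Pgr, the progesterone receptor, was at 8.98, 8.41 and 10.47 against 8.90, 8.73 and 9.83. In both genes the MaSC organoids of letter C held the highest of the 6 organoid levels, and LD cells were higher than every organoid array, at 10.99 to 11.24 for Esr1 and 10.59 to 10.87 for Pgr.

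Luminal progenitor genes (9 measured) had medians of 0.22, -0.17 and 0.13, and milk and alveolar genes (15) had 0.01, -0.04 and 0.15. Lao1, an L-amino acid oxidase found in milk, was the one milk gene higher by 0.25 log2 in each pair. It was at 6.45, 6.16 and 5.11 in MaSC organoids, at 8.52, 6.82 and 5.48 in yMaSC organoids and at 6.05 to 9.32 in LD cells. The casein gene Csn2 was at 3.11 to 3.50 in all 6 organoid arrays, near the lower quartile, as in LD array B, while Csn1s1 was at 7.72, 9.14 and 12.85 against 8.34, 8.86 and 13.29 and followed the letter rather than the kind.

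Genes used as marks of mammary stem cells (12 measured) had medians of 0.02, -0.045 and -0.115. Lgr5, a receptor for R-spondins, was at 6.41, 6.41 and 7.20 in MaSC organoids and at 6.32, 5.94 and 6.24 in yMaSC organoids, without overlap and lower in each pair, by -0.09, -0.47 and -0.96. The dimmer second probe set of Lgr5 was mixed, at 0.02, -0.16 and 0.11. Tspan8, a tetraspanin, was the other member lower in each pair, at -0.51, -0.17 and -0.20. Some of the other probe sets of Tspan8 were lower in each pair and some were mixed. The 1 member higher in each was Inpp5d, an inositol phosphatase, at 0.04, 0.07 and 0.15, and over all genes 10.2% were higher and 10.7% lower in each pair. Lgr4, a relative of Lgr5, differed by -0.06, 0.06 and -0.27 and Lgr6 by 0.39, -0.18 and 0.45. Procr, the protein C receptor, differed by 0.34, -0.24 and 0.36.

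YAP and its pathway were looked at because the yMaSCs had been made with YAP. Yap1 was at 10.69, 10.69 and 10.78 in MaSC organoids and at 10.71, 10.67 and 10.46 in yMaSC organoids. The sources do not say whether this probe set can see the RNA of the vector, so it checks nothing about the transgene. Wwtr1, which encodes TAZ, was at 10.47, 10.40 and 10.39 against 10.30, 10.32 and 10.21, lower in each pair without overlap, with a mean difference of -0.14 log2 (95% interval -0.33 to 0.04). The other 2 probe sets of Wwtr1 were mixed, at 0.08, -0.16 and 0.61 and at 0.04, -0.16 and 0.60, so the direction of Wwtr1 depended on the probe set. Over 19 Hippo pathway and TEAD genes the medians were -0.04, -0.02 and -0.02, with 1 gene higher in each pair (Tead4) and 4 lower (Wwtr1, Tead2, Stk4 and Nf2), beside 10.2% and 10.7% of all genes. With the mean of probe sets the counts were 2 and 1, and with cyclic loess 2 and 3.

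The 21 YAP/TAZ target genes had medians of 0.11, -0.06 and 0.09 log2. Higher in each pair were Nt5e, an ecto-enzyme that makes adenosine (0.32, 0.38 and 0.62), and Asap1 (0.42, 0.12 and 0.22). None was lower in each, and over all genes 10.2% were higher and 10.7% lower in each pair. For both Nt5e and Asap1 some other probe sets were mixed. The matricellular gene Ccn1 was at 8.20, 9.46 and 7.32 in MaSC organoids and at 8.71, 9.17 and 9.52 in yMaSC organoids, differing by 0.51, -0.29 and 2.20. Ccn2 differed by 0.08, -0.06 and 0.73, and Ankrd1 by 1.06, -0.34 and 0.02. The TEAD core stood in 8 of 16 promoters found for this list and in 14.6% of all promoters.

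Stress genes and p53 targets had most of their one-way members on the higher side. Genes of the integrated stress response (12 measured), which restores amino acid supply, had medians of 0.195, 0.12 and 0.425 log2, with 7 members higher in each pair and 1 lower, Fgf21. The transcription factor gene Atf4 differed by 0.19, 0.10 and 0.38 and its target Asns, asparagine synthetase, by 0.28, 0.29 and 0.47, while Atf3 and Ddit3 were large in pair C alone, at 2.52 and 1.73. Targets of p53 (13 measured) had medians of 0.31, 0.07 and 0.21, with 7 higher in each pair and 0 lower, beside 10.2% and 10.7% of all genes. Cdkn1a, the cell cycle inhibitor p21, was at 8.97, 9.11 and 8.48 in MaSC organoids and at 9.29, 9.18 and 9.56 in yMaSC organoids, without overlap. Eda2r, a receptor of the tumor necrosis factor family, differed by 0.84, 0.29 and 0.46. With the arrays set to a common median the counts were 6 for the stress list and 5 for the p53 list.

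**Figure D4:**
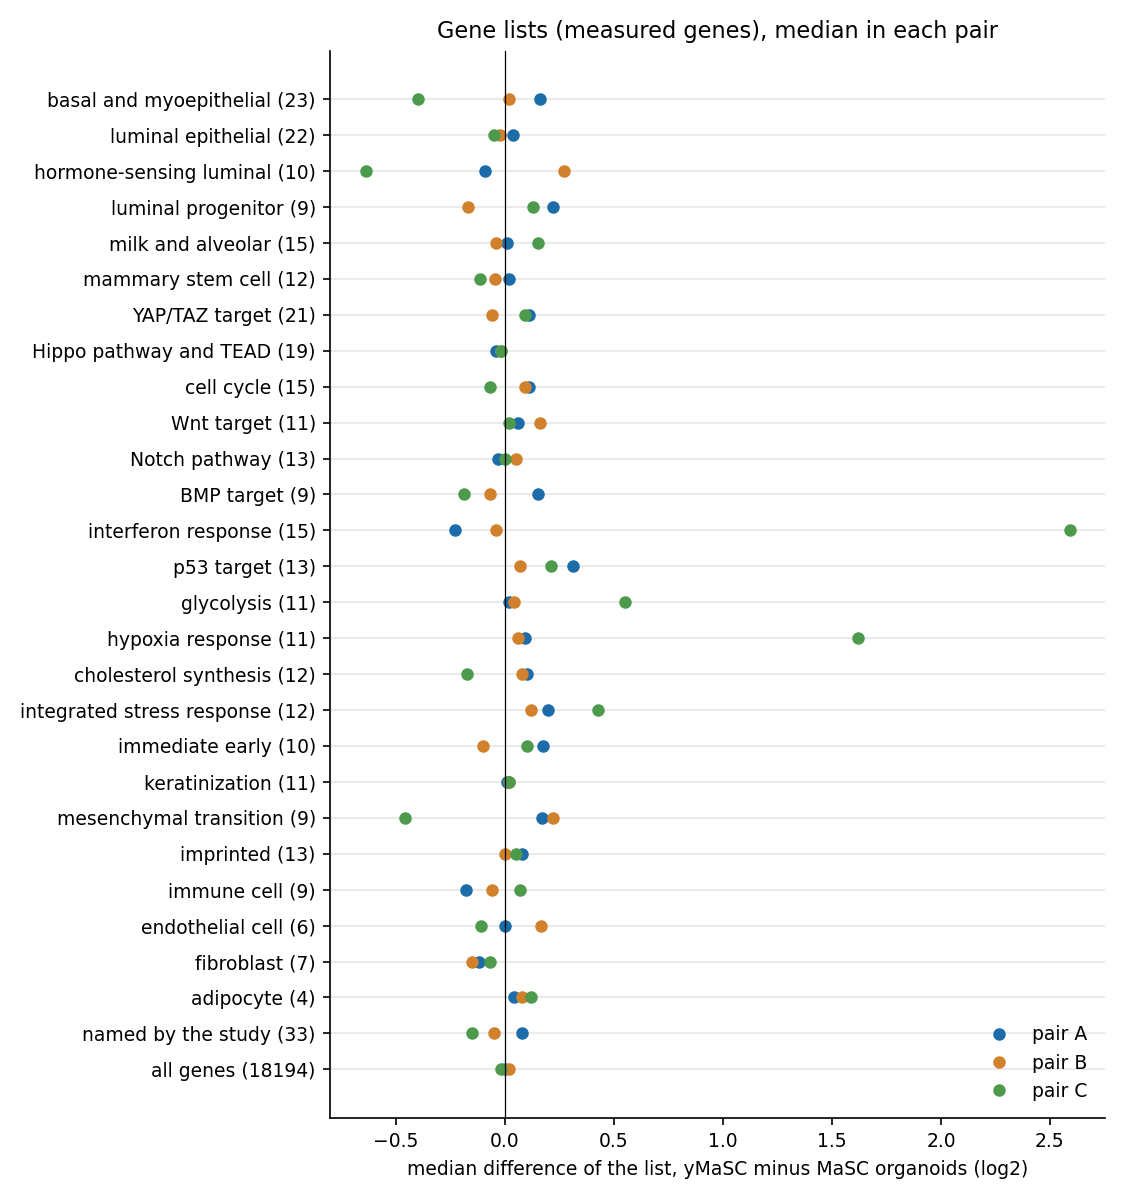
Median yMaSC minus MaSC organoid difference in log2 (x axis) of 27 gene lists and of all genes, with 1 point per letter pair; the number of measured genes follows each list's name. Most medians lay within 0.25 log2 of 0, and those of the interferon and hypoxia lists in pair C, 2.59 and 1.62, lay farthest out.

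Pair C held 2 sets of genes with differences far larger than in the other pairs. The 15 measured interferon response genes, antiviral effectors and sensors, had a median of 2.59 log2 in pair C, where 15 were higher and 14 of them by at least 1 log2. Over all genes 42.4% were higher in pair C, and 204 of 18194 by at least 1 log2. In pairs A and B the medians of the interferon response genes were -0.23 and -0.04. Ifit3, an interferon-induced antiviral protein, was at 6.67, 7.24 and 6.22 in MaSC organoids and at 5.63, 7.22 and 11.12 in yMaSC organoids. Ifit1 was at 7.63, 8.45 and 6.96 against 6.80, 8.42 and 11.22, and Rsad2 at 6.71, 6.83 and 6.58 against 5.99, 7.27 and 10.71. In each of these genes 1 array, that of yMaSC organoids C, stood above the other 5 by more than 2 log2, and MaSC organoids C held the lowest of the 3 MaSC levels.

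The promoters of Ifit3 and Ifit1 are shown because these genes were among those with the largest differences of the list, and both lie on chromosome 19. Windows run from 250 bases before to 50 after the start (RefSeq, GRCm38.p6; Ifit3 at chr19:34583279-34583578 and Ifit1 at chr19:34640639-34640938, plus strand). Capitals mark GAAANNGAA, the core of the element bound by interferon-activated factors, found on either strand, and matches can overlap.
Ifit3: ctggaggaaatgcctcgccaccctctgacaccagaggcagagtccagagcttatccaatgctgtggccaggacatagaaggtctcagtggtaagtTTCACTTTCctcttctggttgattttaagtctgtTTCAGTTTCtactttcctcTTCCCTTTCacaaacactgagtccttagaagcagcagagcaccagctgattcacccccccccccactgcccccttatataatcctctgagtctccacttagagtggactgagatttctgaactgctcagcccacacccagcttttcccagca
Ifit1: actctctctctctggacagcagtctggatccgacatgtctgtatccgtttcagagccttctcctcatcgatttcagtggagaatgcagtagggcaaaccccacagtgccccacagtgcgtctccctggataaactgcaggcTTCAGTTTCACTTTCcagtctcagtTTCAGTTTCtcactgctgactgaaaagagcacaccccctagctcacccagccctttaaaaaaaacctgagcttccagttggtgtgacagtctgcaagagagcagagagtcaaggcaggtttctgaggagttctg
Each window held 3 matches. The core stood in 8 of 11 promoters found for the list and in 8.57% of all 27025 promoters of this length.

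The second set was of genes known to respond to low oxygen. All 11 hypoxia response genes were higher in pair C, 8 of them by at least 1 log2, with a median of 1.62, against 0.09 and 0.06 in pairs A and B. Over all genes 42.4% were higher in pair C, and 204 of 18194 by at least 1 log2. Adm, the vasodilator peptide adrenomedullin, was at 5.98, 5.62 and 6.05 in MaSC organoids and at 6.19, 5.76 and 9.57 in yMaSC organoids. Car9, a carbonic anhydrase at the cell surface, was at 8.80, 9.27 and 9.02 against 8.56, 9.51 and 11.46, and Vegfa at 6.57, 6.88 and 7.44 against 6.68, 6.70 and 9.73. Of 11 glycolysis genes, 10 were higher in pair C with a median of 0.55, against 0.02 and 0.04 in A and B. Again a single array, yMaSC organoids C, carried the difference.

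The windows of Egln3, a prolyl hydroxylase of the oxygen-sensing pathway, and Bnip3, a mitochondrial protein, are shown as members of this list that differed by 1.65 and 1.62 log2 in pair C (minus strand, chr12:54203825-54204124 and chr7:138909457-138909756). Both were picked after their values were seen. Capitals mark ACGTG, the core that hypoxia-inducible factors bind, on either strand.
Egln3: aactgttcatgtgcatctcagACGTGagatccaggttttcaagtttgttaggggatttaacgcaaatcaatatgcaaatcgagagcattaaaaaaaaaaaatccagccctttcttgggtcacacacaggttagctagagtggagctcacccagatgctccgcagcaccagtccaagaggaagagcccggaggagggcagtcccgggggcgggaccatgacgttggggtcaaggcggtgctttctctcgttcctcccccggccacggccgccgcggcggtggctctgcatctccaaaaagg
Bnip3: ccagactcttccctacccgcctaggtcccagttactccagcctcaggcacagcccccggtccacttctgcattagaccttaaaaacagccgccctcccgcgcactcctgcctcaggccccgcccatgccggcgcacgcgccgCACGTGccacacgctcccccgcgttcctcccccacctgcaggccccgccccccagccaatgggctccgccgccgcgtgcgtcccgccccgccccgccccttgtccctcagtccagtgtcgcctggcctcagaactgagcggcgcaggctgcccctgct
The core stood in 7 of 10 promoters found for the list and in 19.7% of all promoters. Adm and Vegfa differed more in pair C, by 3.52 and 2.29 log2, but their windows held no match, nor did that of Pdk1. In Bnip3 the 2 matches overlap.

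Markers of other cells were read beside pair C. Of 9 immune cell markers none lay above the median level of genes in the organoids, and their summed linear level was 219 to 262 in MaSC organoids, 208 to 367 in yMaSC organoids and 814 to 1357 in LD cells. Ptprc, which encodes the pan-leukocyte antigen CD45, lay at or below 2.99 in all 6 organoid arrays against at least 8.17 in LD cells. Cd68, a lysosomal protein of macrophages, was the exception, at 7.41 in yMaSC organoids C and 4.28 in MaSC organoids C, and Lyz2 went the other way, at -1.87 log2. The summed level of 7 fibroblast markers was 1038 to 2408 in MaSC organoids and 760.5 to 1293 in yMaSC organoids. Most of that sum was Dcn, at 9.78, 9.62 and 11.06 in MaSC organoids and 10.09, 9.06 and 10.08 in yMaSC organoids. Of the 7 markers, 1 was higher and 3 were lower in each pair, beside 10.2% and 10.7% of all genes. Endothelial, fibroblast and adipocyte markers had medians between -0.15 and 0.165 in the 3 pairs. The part of other cells in the differences of pair C was not tested.

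**Figure D5:**
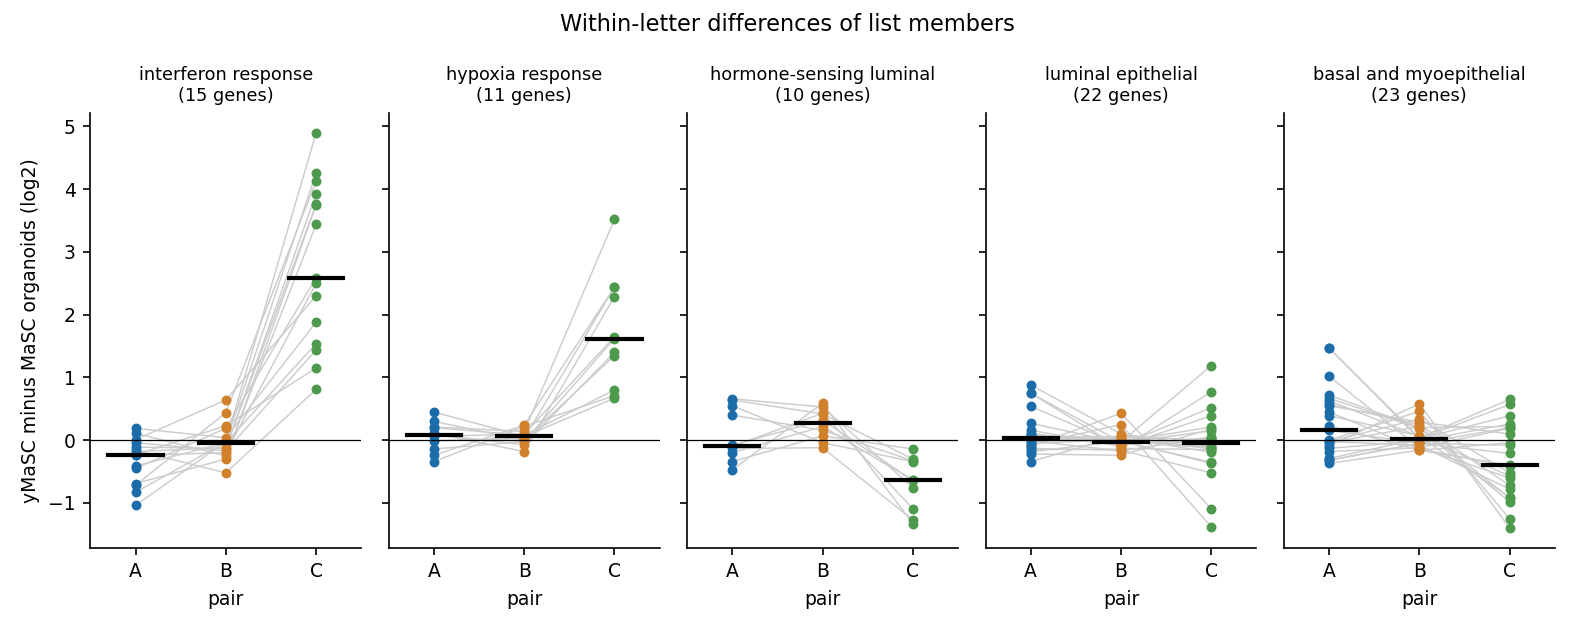
Within-letter differences in log2 (y axis) of the members of 5 lists in pairs A, B and C (x axis); each point is a gene, grey lines join a gene over the pairs, and black bars are medians. Interferon and hypoxia genes spread upward in pair C alone, and hormone-sensing genes lay above 0 in pair B, at a median of 0.27, and below 0 in pair C, at -0.64.

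Each pair also had extremes of its own. The highest differences in pair A were those of Defb3, an epithelial antimicrobial peptide (3.03 log2), Sprr2f, a cornified envelope protein (3.01), Igfbp2 (2.54), Lao1 and the protease inhibitor gene Spink5 (2.07 each). Pair B peaked with the Wnt antagonist gene Dkk2 (1.73), Clca2 (1.62), Nid1 of the basement membrane (1.44), Aldh3a1 (1.35) and Fxyd2 (1.25). In pair C the same Dkk2, Clca2, Nid1 and Fxyd2 were lower, by -1.67, -1.94, -2.20 and -2.10. The lowest gene of pair C was Lyz1, a lysozyme of secretory epithelium and phagocytes, at 7.30 in MaSC organoids C and 3.08 to 3.22 in the other 5 organoid arrays. Olfm4, a secreted glycoprotein of epithelial crypts, was likewise at 8.06 in MaSC organoids C and at 3.94 to 4.89 elsewhere in the organoids.

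The remaining lists are given by their medians in pairs A, B and C, that of mesenchymal transition genes being the farthest from 0. Cell cycle genes (15) had medians of 0.11, 0.09 and -0.07, Wnt targets (11) of 0.06, 0.16 and 0.02, Notch pathway genes (13) of -0.03, 0.05 and 0.00 and BMP targets (9) of 0.15, -0.07 and -0.19. Cholesterol synthesis genes (12) had 0.10, 0.08 and -0.175, immediate early genes (10) 0.175, -0.10 and 0.10, and mesenchymal transition genes (9) 0.17, 0.22 and -0.46. Keratinization genes (11) had 0.01, 0.02 and 0.02. Ivl was the only keratinization gene lower in each pair, there by at least 0.5 log2, and 3 others were higher in each pair. Imprinted genes (13) had 0.08, 0.00 and 0.05, and sex-linked genes (4) had -0.085, -0.01 and 0.10. The 33 measured genes that the study names for the mammary gland, a list chosen with these samples in view, had 0.08, -0.05 and -0.15. None of the 33 was higher and 3 were lower in each pair, beside 10.2% and 10.7% of all genes.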

How the data were processed

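The authors hybridized RNA of 9 samples to Affymetrix arrays and deposited log2 expression values per probe set, normalized together by RMA (version not given in the sources used here). RMA pulls low signals towards a common floor, and array signal over background limits small differences. All 9 columns belonged to samples of the series, and 0 columns of other samples were left out. Of 45101 probe sets, 34958 were annotated to 1 gene, 932 to several and 9211 to none, and only the first kind was named. Where a gene had several, the brightest on average over the 9 arrays was kept, which left 18194 genes, of which 18033 matched RefSeq.

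Differences were taken within letters and fitted with limma 3.58.1 in R 4.3.3, with the letter as a block, over the 6 organoid arrays, with Benjamini-Hochberg adjustment over all genes. The scripts were tested on simulated data. Deviations of same-letter arrays from their kind's mean had r of 0.607, 0.611 and 0.649 in A, B and C. The highest r of unlike letters was 0.379, between MaSC organoids A and yMaSC organoids B. The letters, which are given in the labels, were taken to pair the arrays. Tables and figures used Python 3.11.15 with numpy 2.4.6, pandas 2.3.3 and matplotlib 3.10.9.

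Named genes were those above the median organoid level that differed one way by 0.5 log2 in each pair (up to 12 a direction), the genes the study names, at most 4 genes from every list, by size of mean difference, the 5 extremes of each pair in either direction and the 6 genes with the lowest p. Any other gene, including further list members, was picked after its values were seen. The lists covered lineage (basal, luminal, hormone-sensing, progenitor, milk, stem cell), YAP/TAZ targets, Hippo, cell cycle, Wnt, Notch, BMP, interferon, p53, glycolysis, hypoxia, cholesterol, stress, immediate early, keratinization, mesenchymal, imprinted, sex-linked and other-cell genes. The members and lists were chosen with earlier results of these data known. Alternatives changed the block, the arrays fitted, the probe set rule, the scaling, the level filter and the limit.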

Additional observations from a re-analysis of the deposited data

How the results depend on the processing

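In the paired limma fit 0 genes passed, and every alternative fit also called 0, whether without the replicate block (198 genes at an unadjusted p under 0.05 in 6 arrays), with the letter as a random block (630), with array weights (783), with cyclic loess (638) or without 1 letter (274 to 755). The count of genes higher by 0.5 log2 in each pair was 6 and became 10 over every probe set, 42 at a limit of 0.25, 0 at a limit of 1 and 12 to 57 without 1 letter. The count of lower genes was 3 and became 1 with the mean of probe sets, 7 over every probe set, 23 at 0.25, 1 at 1 and 7 to 34 without 1 letter. Mean of probe sets lost B4galnt2, Ivl and Nrcam, cyclic loess B4galnt2 and Matn2, a common median B4galnt2, Matn2 and Mgp, and the filter on genes above the median level over 9 arrays Ivl, Matn2 and Nrcam, which left 4 higher and 2 lower. Bex1 and Epgn passed that filter only through their LD arrays. Their organoid means, 5.03 and 5.475, lay below the organoid median of 6.34, so passing says nothing about their level in organoids. The mean of LD-high medians was 0.06 log2 and ranged from 0.00 to 0.10 without 1 letter, and that of organoid-high medians, -0.08, ranged from -0.155 to -0.045. Of 1375 values of named genes under the alternatives 1346 moved by less than the spread between pairs and 29 by more, 72 of the 1375 had another sign, and none of the 9 genes changed direction. List medians under other scalings were added after seeing the data, and many that lay near 0 changed sign in some pairs. Among these were medians of the luminal, Hippo, stem cell, basal, milk, Notch and keratinization lists. With 3 pairs the smallest exact two-sided p is 0.25.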
